A study of Mus musculus with 4 samples.

Results

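The intracellular lipid-binding proteins are small soluble carriers that hold a single fatty acid or retinoid inside the cell. The genes described here are the fatty acid binding protein genes Fabp3, Fabp4, Fabp5, Fabp7 and Fabp12 and the cellular retinoic acid binding protein genes Crabp1 and Crabp2, 7 of the 19421 genes measured in whole mouse retina. They were listed by name, and the probe set of each was chosen by its mean log2 level, the highest over the 4 arrays. That choice mattered only for Fabp3 and Fabp5, which have 2 probe sets each, with mean levels of 7.71 against 7.28 for Fabp3 and 7.71 against 6.88 for Fabp5. All 7 passed a filter at the median of mean signal, which was tried as an alternative. The genes were picked with earlier results of these data in view, so how many of them differ between genotypes supports nothing beyond these arrays.

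The knockout retinas came from Nrlflox/flox; CAG-CreERTM mice and the control retinas from Nrlflox/+; CAG-CreERTM mice, which kept an intact Nrl allele. Nrl is the transcription factor that specifies rod photoreceptors and maintains their genes. Every animal of both genotypes carried the tamoxifen-activated Cre under the broadly active CAG promoter, so recombination was not confined to rods by design, and every animal received 4-hydroxytamoxifen from postnatal day 42 to 44. Retinas were taken on day 63, 19 days after the last injection, and each genotype was measured on 2 arrays, each a pool of 4 retinas from 2 animals.

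Levels are the deposited log2 values, on which a step of 1 is a doubling of signal, and each fold change is knockout minus control. Nrl itself read 7.57 and 7.05 in knockout pools, against 8.21 and 8.13 in control pools (limma adjusted p = 0.289). The defining rod gene Gnat1, which encodes the rod transducin α subunit, had levels of 9.46 and 9.76 in knockout pools and 12.65 and 12.58 in control pools, close to the highest value on any array, 12.75. Xist, which silences an X chromosome in females, stood at 10.66 in knockout and 10.47 in control for replicate 2, and at 4.07 in knockout and 4.09 in control for replicate 1. Each replicate number therefore goes with 1 sex. A level measured in whole retina cannot tell fewer cells of a type from less RNA per cell.

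Fatty acids are poorly soluble, and these carriers move them from membranes to enzymes, to other membranes or to nuclear receptors. In neural tissue Fabp7 binds long polyunsaturated fatty acids such as docosahexaenoic acid, the main fatty acid of photoreceptor outer segments, and it is best known from radial glia, astrocytes and Müller glia. The retinoic acid binding proteins carry the acid made from vitamin A either to the enzymes that break it down or to its receptors.

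Of the 7 genes, 3 have a start site in the RefSeq promoter table used here (GRCm38.p6), namely Fabp7, Fabp3 and Crabp1. The 250 bases before the annotated start are shown for Fabp7 and Fabp3, because they had the highest and the lowest fold change of the 7 genes. For Fabp3 this rank rests on its brighter probe set, whose locus was not determined. Its other probe set gave −0.15, above Crabp1 (−0.21) and Crabp2 (−0.20). The Fabp7 stretch is chr10:57784673-57784922 and the Fabp3 stretch is chr4:130308488-130308737, both on the plus strand and printed 5′ to 3′. Capitals mark matches to any of 7 motifs on either strand.
Fabp7: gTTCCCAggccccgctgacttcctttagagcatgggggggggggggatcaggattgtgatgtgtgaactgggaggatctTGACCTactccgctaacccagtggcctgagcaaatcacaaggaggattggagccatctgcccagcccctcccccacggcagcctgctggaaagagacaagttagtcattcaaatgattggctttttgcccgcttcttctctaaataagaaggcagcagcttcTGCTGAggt
Fabp3: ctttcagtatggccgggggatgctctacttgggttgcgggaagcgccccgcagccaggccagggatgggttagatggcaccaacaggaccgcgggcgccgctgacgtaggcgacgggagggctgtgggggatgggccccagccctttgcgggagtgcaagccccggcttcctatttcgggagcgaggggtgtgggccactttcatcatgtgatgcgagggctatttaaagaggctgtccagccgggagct
The motifs searched were TATAAA (the TATA box), TGCTGA (a half-site of the element bound by Maf factors, the family of Nrl), TAATCC (the core bound by Crx), TTGGCA (a half-site of nuclear factor I), TGGGAA (the core bound by Rbpj), AGGTCA (a half-site of nuclear receptors) and ATGCAAAT (the octamer of POU factors). No 2 matches overlapped. The Fabp7 stretch held TGCTGA on the plus strand, its first base 9 bases before the start, a match that 16.1% of the 32851 promoter stretches of that length also hold. It held AGGTCA on the minus strand, printed as TGACCT from 171 bases before the start, which 14% of stretches hold. It also held TGGGAA on the minus strand, printed as TTCCCA from 249 bases before the start, which 21.6% hold. The TATA box, the Crx core, the nuclear factor I half-site and the octamer, which 12.4%, 6.25%, 12.3% and 1.6% of stretches hold, were not found in it. The Fabp3 stretch and the Crabp1 stretch held none of the 7 motifs. A match describes the letters in this window and no more.

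Among the 7 genes, Fabp7 differed most between genotypes, followed by Fabp4 and Fabp12, all 3 with both knockout pools above both control pools. Fabp3 lay lower in both knockout pools by its brighter probe set only, and Fabp5, Crabp1 and Crabp2 overlapped between genotypes. Over all genes 17.0% lay above and 18.4% below in this sense, so a gene without overlap is common on 4 arrays. With limma, 0 of the 7 genes passed an adjusted p under 0.05, a threshold that 0.201% of all genes passed, and 4 of the 7 had an unadjusted p under 0.05, as 7.07% of all genes did. The fold changes of the 7 ran from −0.31 to 1.27, with a median of 0.08, while the median over all genes was −0.0026.

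Fabp7, the brain-type fatty acid binding protein, had log2 levels of 8.40 and 9.06 in knockout pools, against 7.58 and 7.35 in control pools. The knockout pools stood apart from the controls and also from each other. The knockout mean was 8.73 ± 0.47 and the control mean 7.47 ± 0.16 (SD, n = 2 each). The log2 fold change was 1.27 (SE 0.22, 95% interval 0.73 to 1.80), or 2.41-fold the control signal. It was the 26th highest of the 19421 fold changes, and 0.227% of genes lay at least 2-fold above control. The limma adjusted p over all genes was 0.202, short of the threshold. When the variance prior was allowed to follow mean signal the same fold change passed, with a limma adjusted p of 0.0364. The knockout minus control difference was 0.82 in replicate 1 and 1.71 in replicate 2. Replicate 2, the pools with high Xist, held the higher of the knockout levels and the lower of the control levels. Each genotype had a single pool of each sex, so sex and pool cannot be told apart in these differences.

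**Figure D1:**
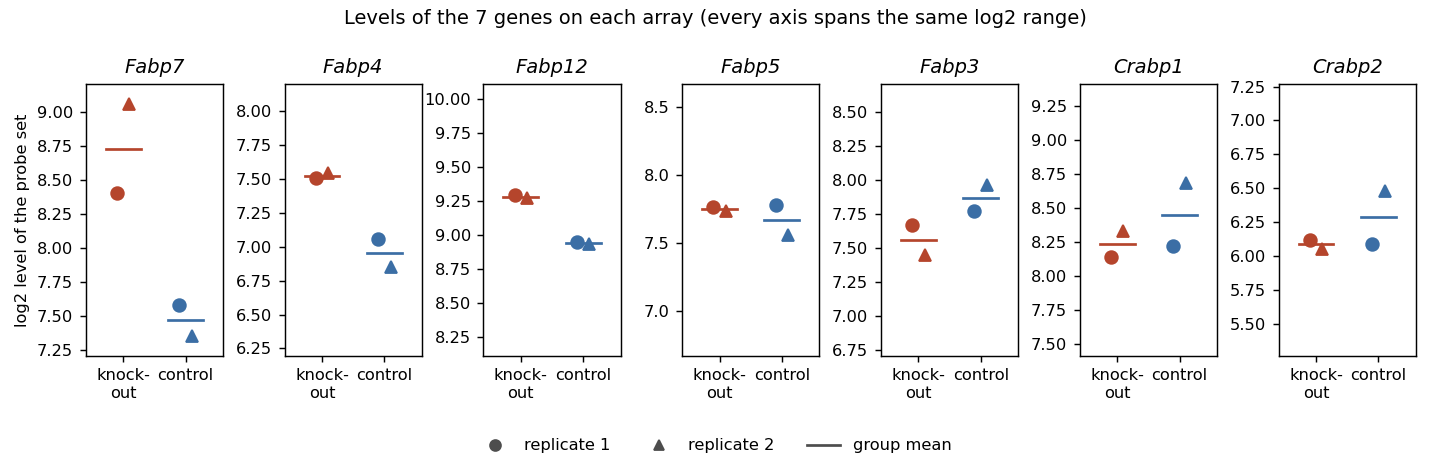
Log2 level of the probe set of each of the 7 genes on each array, knockout left and control right, with circles for replicate 1, triangles for replicate 2 and a line at each group mean. Each panel has its own axis of equal span, since levels of different probe sets are not comparable, and the knockout points of Fabp7, at 8.40 and 9.06, lie above its control points at 7.58 and 7.35.

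Fabp4, the adipocyte-type protein, is made by fat cells, macrophages and capillary endothelium. Its levels were 7.51 and 7.54 in knockout pools and 7.06 and 6.85 in control pools. The knockout pools lay close together, and the gap to the controls was larger than the spread in either group. The log2 fold change was 0.57 (SE 0.11, 95% interval 0.29 to 0.84), 1.48-fold, with differences of 0.45 and 0.69 in replicates 1 and 2. It did not pass over all genes (limma adjusted p = 0.270).

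Fabp12, known in rat from retina and testis, had the tightest values of the 7 genes. It stood at 9.29 and 9.27 in knockout pools and at 8.95 and 8.93 in control pools. The differences were 0.34 in replicate 1 and 0.34 in replicate 2, and the SD within each genotype was 0.01 (n = 2 each). The log2 fold change of 0.34 (SE 0.10, 95% interval 0.11 to 0.57) was 1.27-fold the control signal, with a limma adjusted p of 0.509.

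Fabp5, the epidermal-type protein, binds fatty acids and retinoic acid and can hand them to PPARδ. It had levels of 7.76 and 7.73 in knockout pools, against 7.78 and 7.56 in control pools. One control pool lay above both knockout pools, and the log2 fold change was 0.08 (SE 0.12, 95% interval −0.20 to 0.36, limma adjusted p = 0.956). Its other probe set gave 0.09, with −0.02 in replicate 1 and 0.21 in replicate 2. The sign rested on control replicate 2, without which the fold change was −0.03. RefSeq places Fabp5 on chromosome 3 and lists a pseudogene named Fabp5l2 on chromosome 18. The number of the brighter probe set falls between those of Crabp1 and Rbp2, both on chromosome 9. Which locus it reads was not determined, and cross-hybridisation was not tested.

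Fabp3, the heart-type protein of muscle and neurons, had levels of 7.66 and 7.45 in knockout pools, against 7.77 and 7.96 in control pools. Its log2 fold change was −0.31 (SE 0.13, 95% interval −0.62 to −0.0030, limma adjusted p = 0.701), with −0.10 in replicate 1 and −0.52 in replicate 2. The dimmer probe set read 7.28 and 7.13 in knockout pools and 7.44 and 7.27 in control pools. There the genotypes overlapped and the log2 fold change was −0.15. RefSeq places Fabp3 on chromosome 4 and the pseudogene Fabp3-ps1 on chromosome 10. The number of the brighter probe set falls between those of Fabp7 (chromosome 10) and Fabp6 (chromosome 11). That of the dimmer one falls between those of Fabp12 (chromosome 3) and Rbp7 (chromosome 4). Which of these loci each probe set reads was not determined here, so the −0.31 may belong to the pseudogene.

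Crabp1, which binds retinoic acid and is linked to its breakdown, had levels of 8.14 and 8.33 in knockout pools and 8.22 and 8.68 in control pools. Crabp2, which carries retinoic acid to its nuclear receptors, had 6.12 and 6.05 in knockout pools and 6.09 and 6.48 in control pools. In both genes control replicate 2 stood above the other 3 arrays, which overlapped across genotypes. The log2 fold change was −0.21 for Crabp1 (SE 0.17, 95% interval −0.63 to 0.20, limma adjusted p = 0.888). For Crabp2 it was −0.20 (SE 0.15, 95% interval −0.56 to 0.16, limma adjusted p = 0.865). Without control replicate 2 these values were 0.02 for Crabp1 and −0.0044 for Crabp2.

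Set against its relatives, Fabp7 was shifted further between genotypes than any of the other 6 genes in both replicates. The median fold change of the other 6 was −0.06, and that of Fabp7 exceeded it by 1.33. The excess was 0.81 in replicate 1 and 1.80 in replicate 2. No test bears on it, since an exact permutation over 2 arrays against 2 cannot give a p below 0.333 and Fabp7 was singled out with its value known. Against single relatives the excess of the Fabp7 fold change ran from 0.70 over Fabp4 to 1.58 over Fabp3. Over Fabp4 it was 0.37 in replicate 1 and 1.02 in replicate 2, and over Fabp12 it was 0.48 and 1.37.

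The 7 other members of the protein family measured here were described in the same way. With limma 0 of the 7 were called, against 0.201% of all genes. An unadjusted p under 0.05 was seen for 1 of them, against 7.07% of all genes. Their median fold change was 0.05, and they ran from −0.34 to 0.28. Rbp7, a retinol binding protein, had levels of 5.51 and 5.63 in knockout pools and 6.01 and 5.80 in control pools, a log2 fold change of −0.34 (limma adjusted p = 0.641). At the other end, the intestinal Fabp2 had 0.28 with 0.57 in replicate 1 and −0.02 in replicate 2. The retinol binding protein gene Rbp2 had 0.15, the ileal bile acid binder Fabp6 0.11 and the liver-type Fabp1 0.05. Fabp1 differed by −0.47 in replicate 1 and 0.57 in replicate 2. None of these 7 reached the fold change of Fabp12, Fabp4 or Fabp7.

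**Figure D2:**
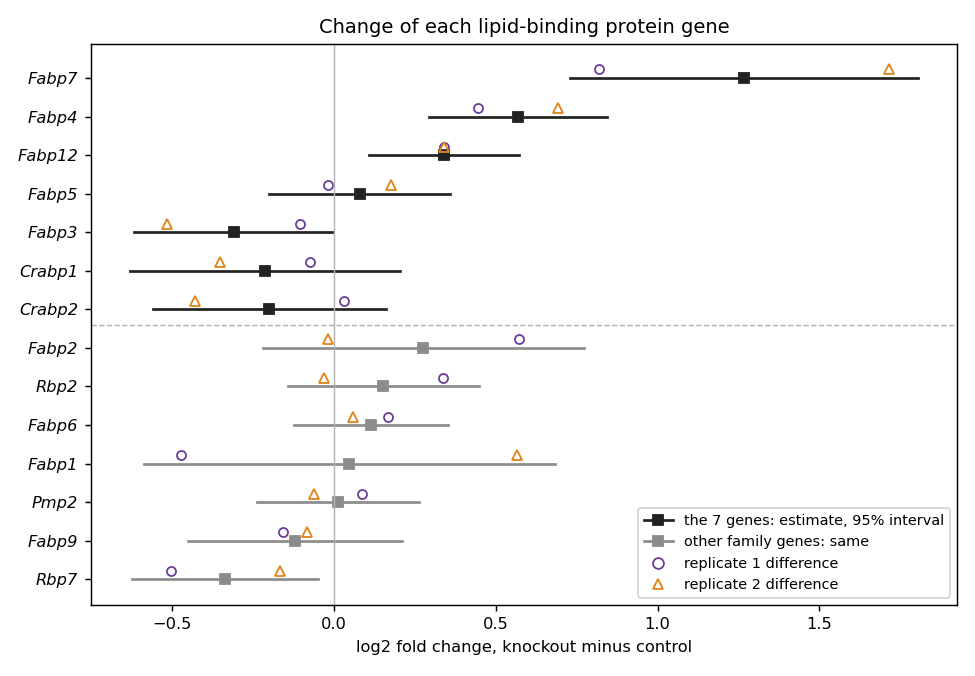
Log2 fold change, knockout minus control, of the 7 genes (black) and of the 7 other measured family genes (grey), with 95% intervals from limma, and with the separate replicate 1 (circles) and replicate 2 (triangles) differences. Fabp7 at 1.27, Fabp4 at 0.57 and Fabp12 at 0.34 lie to the right of all others.

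Several of these genes are neighbours on chromosome 3, where RefSeq places Fabp5, Pmp2, Fabp9, Fabp4 and Fabp12 in this order. The adjacent pair Fabp4 and Fabp12 had the fold changes of 0.57 and 0.34 given above. On the other side of Fabp4, the testis gene Fabp9 had −0.12 (95% interval −0.45 to 0.21) and Pmp2, which encodes the myelin protein P2, had 0.01 (95% interval −0.24 to 0.26). Fabp5, at the far end, had 0.08 by its brighter probe set, whose locus was not determined, and 0.09 by the other. The higher signal in knockout pools was thus seen at one end of the group, and this split was read off after the values were seen. Fabp7 lies on chromosome 10, away from the group.

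No measured gene of the pathways that these carriers serve was called. Of 83 measured genes on the 10 pathway lists, the other family members included, limma called 0 in either direction. Over all genes it called 0.201%, so 0 calls among 83 is no result about these pathways. Of the 83 genes, 8, or 9.64%, had an unadjusted p under 0.05, against 7.07% of all genes. The medians of the lists lay between −0.14 and 0.07, beside −0.0026 over all genes, and single genes ran from −0.36 to 0.44. Several of these medians changed by over 1.5 times or in sign when an array was left out, so they give no direction. The median of the other retinoid carriers, for example, was −0.0063 without control replicate 1.

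On the retinoid side, 0 of 8 genes of retinoic acid synthesis and breakdown were called (median −0.03). Dhrs3, which reduces retinaldehyde back to retinol, had levels of 7.86 and 7.48 in knockout pools and 8.03 and 8.04 in control pools (log2 fold change −0.36, limma adjusted p = 0.692). Rdh10, the retinol dehydrogenase on the path to retinoic acid, had 0.24. Among 6 retinoic acid and retinoid X receptors, with a median of 0.03, Rara had 0.22 and Rarb −0.20. Among 5 other retinoid carriers and uptake genes (median −0.14), Rbp3, the carrier between photoreceptors and pigment epithelium, had 0.20 and Rlbp1, the retinaldehyde carrier of Müller glia and pigment epithelium, −0.32. Limma called 0 genes of these lists, in which Dhrs3 alone had an unadjusted p under 0.05.

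On the fatty acid side, 0 of 14 genes of uptake and activation were called (median −0.07, 3 with an unadjusted p under 0.05). The transport proteins Slc27a6 and Slc27a1 had −0.32 and 0.32. In the polyunsaturated fatty acid list (7 genes, median 0.01), Elovl2, the elongase on the path to docosahexaenoic acid, had levels of 8.01 and 8.60 in knockout pools and 7.70 and 8.03 in control pools. The genotypes overlapped, with a log2 fold change of 0.44 (limma adjusted p = 0.763), and Elovl4, which makes very long chains in photoreceptors, had −0.08. Of 11 PPARs and their targets (median −0.06), 0 were called. The coactivator Ppargc1a, which drives mitochondrial genes, had −0.36 and Cpt1a, which admits fatty acids to mitochondria, −0.27.

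In β-oxidation (13 genes, median −0.01), Decr1, a reductase for unsaturated chains, had levels of 7.92 and 7.87 in knockout pools and 7.62 and 7.37 in control pools. Its log2 fold change was 0.39 (limma adjusted p = 0.575), against −0.25 for Acadvl, the very long chain dehydrogenase. Of 5 lipolysis and endocannabinoid genes (median −0.04), Mgll, the monoacylglycerol lipase, had −0.24 and Naaa, an acid amidase of lysosomes, −0.17. Of 9 regulators linked to Fabp7 in neural progenitors and glia, such as Notch1, Hes1 and nuclear factor I genes, 0 were called and 0 had an unadjusted p under 0.05. Their median was 0.07, with Pou3f2, a POU factor, at 0.26 and Notch1 at 0.16.

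**Figure D3:**
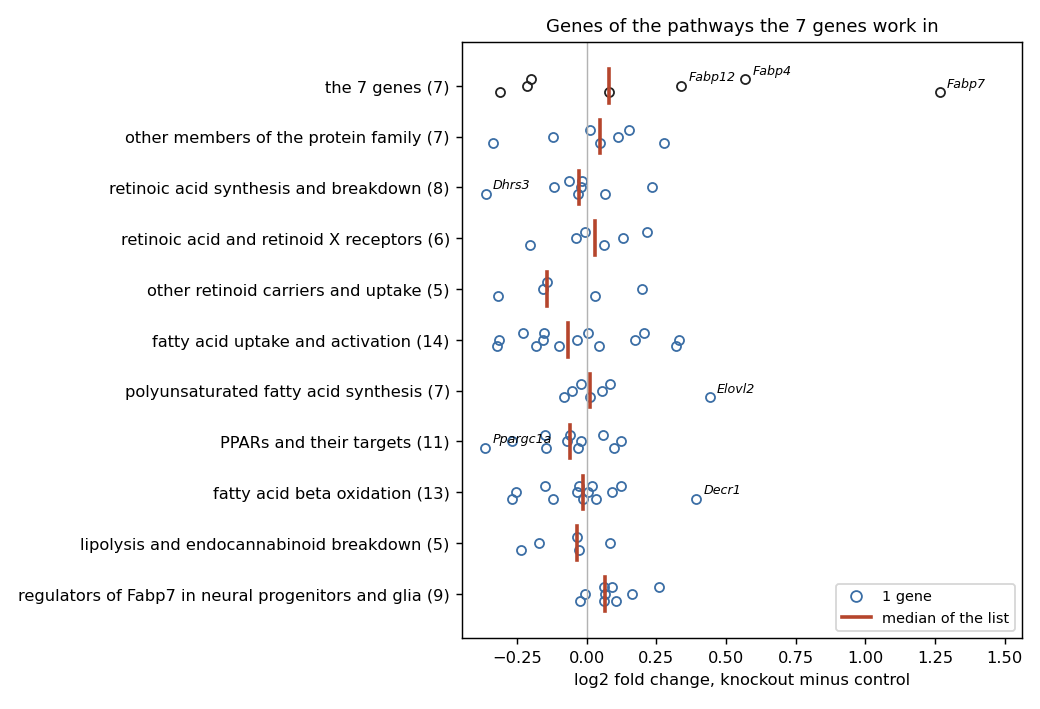
Log2 fold change, knockout minus control, of each measured gene on the pathway lists (circles, spread vertically for legibility) with the median of each list (bar), the 7 genes in the top row and the number measured in parentheses. Fabp7 at 1.27 lies beyond the highest pathway gene, Elovl2, at 0.44.

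Because these carriers are made by different cells, marker lists were read beside them. No detection values were used, so no marker can be placed at 0. Beside Fabp7, 10 of 13 Müller glia markers lay above 0, as 9526 of the 19421 genes did. Some of the 10 barely did so, such as Slc1a3 at 0.02, Aqp4 at 0.0065 and Kcnj10 at 0.0044. The list had a median of 0.06 and a mean log2 level of 7.93 and 7.85 in knockout pools against 7.78 and 7.70 in control pools. Clu, which encodes clusterin, had 0.89 (limma adjusted p = 0.0583) and Crym, which encodes μ-crystallin, 0.80 (limma adjusted p = 0.0965). Vim, an intermediate filament, had 0.56 (limma adjusted p = 0.219). Clu, Crym and Vim each had both knockout pools above both control pools. The 3 markers below 0 were Glul, the glutamine synthetase of these cells, at −0.37, Rlbp1 at −0.32 and Gpr37 at −0.17. Apart from Glul, the markers of this list, Clu included, were picked after their values were seen. All 4 astrocyte markers lay above 0 (median 0.07), and Gfap, the filament of reactive glia, had 0.70 (limma adjusted p = 0.317). Pdgfra at 0.09, Pax2 at 0.05 and S100b at 0.02 overlapped between genotypes. The 10 cone markers had a median of −0.13 and mean levels of 8.93 and 8.81 in knockout pools against 8.75 and 8.53 in control pools, with 4 above 0 and 6 below. Among them the cone transducin genes Gnb3 and Gnat2 rose by 1.59 and 1.10 (limma adjusted p = 0.0366 and 0.0402), while the opsin genes Opn1sw and Opn1mw had −0.52 and −0.22 (limma adjusted p = 0.281 and 0.793). Both opsin genes were picked after their values were seen. The part of glia or cones in the Fabp7 value was not tested.

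Beside Fabp4, 3 of 9 endothelial markers lay above 0, with a median of −0.03. Their mean levels were 5.55 and 5.59 in knockout pools and 5.58 and 5.67 in control pools, and Pecam1, an endothelial adhesion molecule, had −0.30. The 4 measured adipocyte markers had a median of −0.12, with mean levels of 5.41 and 5.49 in knockout pools and 5.42 and 5.68 in control pools. Microglia and macrophage markers were mostly higher, as Fabp4 was. Of 13, 10 lay above 0 and the median was 0.38. Their mean levels were 6.11 and 6.15 in knockout pools against 5.67 and 5.70 in control pools, and Ctss and Tyrobp were called. The 3 markers below 0 were Tmem119 at −0.40, with both knockout pools below both control pools, Trem2 at −0.07 and Itgam at −0.04. These 3 were named after their values were seen. The part of microglia and macrophages in the Fabp4 value was not tested. Beside Fabp3, the 6 muscle markers had a median of 0.04, and beside Crabp1 the 9 amacrine markers had a median of −0.09.

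**Figure D4:**
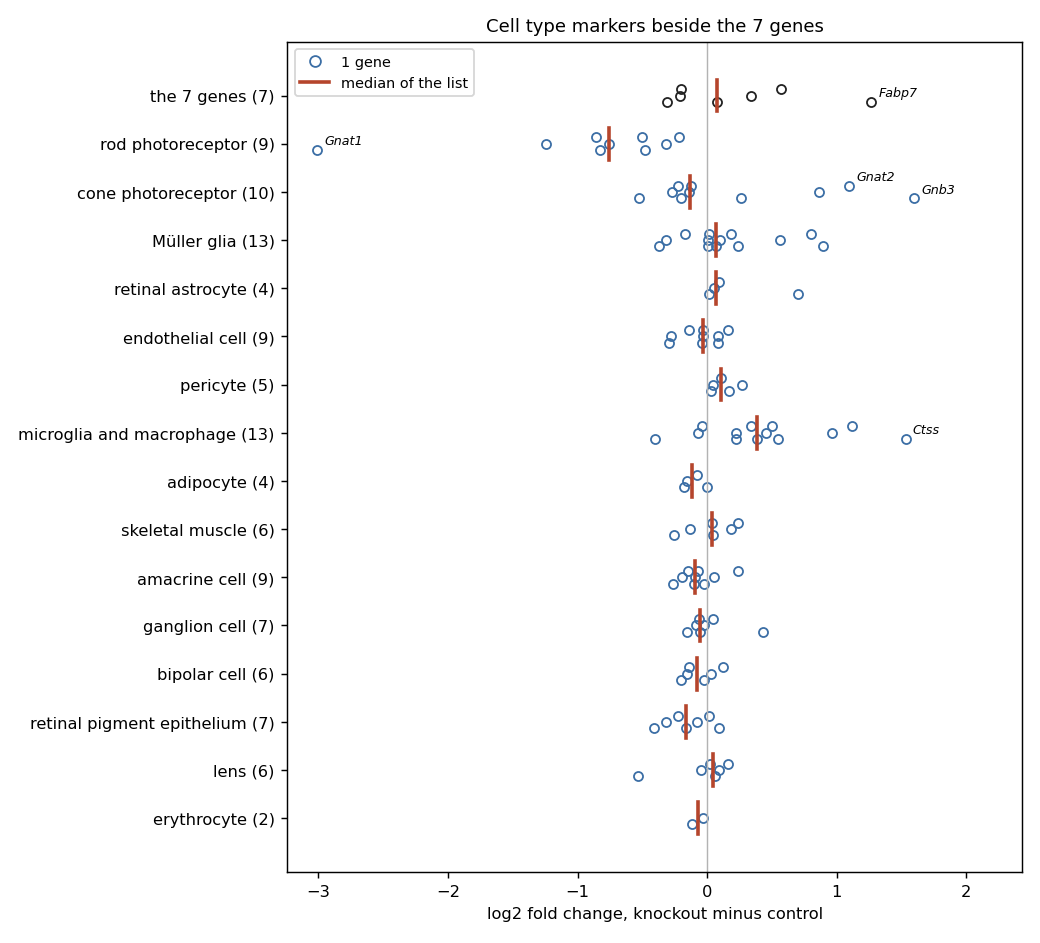
Log2 fold change, knockout minus control, of each measured cell type marker (circles, spread vertically for legibility) with the median of each list (bar), the 7 genes in the top row and the number measured in parentheses. The rod list has a median of −0.76 and the microglia and macrophage list 0.38, while the endothelial and adipocyte lists have −0.03 and −0.12.

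The 5 genes with the values most like those of Fabp7 were found by centring each gene on its own mean and taking the smallest root mean square difference over the 4 arrays. They were Cadps2, a factor of dense-core vesicle release, at a difference of 0.13, the acute phase transcription factor Cebpd at 0.13, the metallothionein Mt2 at 0.13, the Sox factor Sox30 at 0.15 and Gnat2 at 0.19. Their log2 fold changes were 1.17 for Cadps2, 1.40 for Cebpd, 1.21 for Mt2, 1.45 for Sox30 and 1.10 for Gnat2. All 5 were higher in knockout replicate 2 than in knockout replicate 1, as Fabp7 was, an order largely fixed by selecting them for likeness on these arrays. Mt2 had the widest gap between knockout pools, 8.84 and 9.76, against 8.08 and 8.10 in control pools. With 4 arrays and 19421 genes, such likeness is a description only.

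**Figure D5:**
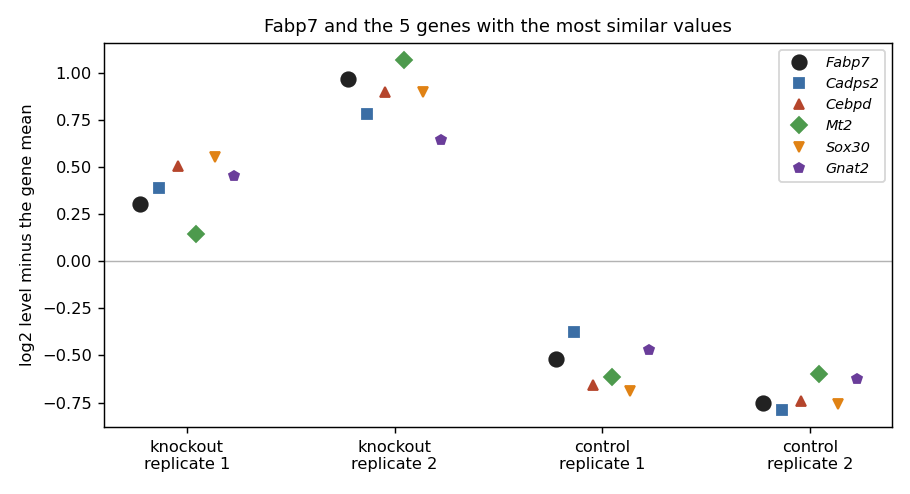
Log2 level minus the gene's own mean on each array for Fabp7 and the 5 genes with the smallest root mean square difference from it. In all 6 genes the knockout arrays lie above 0 and the control arrays below 0, which selection by likeness to Fabp7 largely fixed.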

How the data were processed

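Total RNA of whole retina was amplified and hybridised as biotinylated cDNA, per the labels' protocols. Values deposited by the authors are log2 levels of 21897 probe sets on 4 arrays. The submitters' processing notes name limma and affy. No source used here gives the background correction or the normalization. The log2 scale was inferred from the range of the deposited values (1.34 to 12.75), and the number of arrays limits precision.

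Gene names came from the platform annotation of the probe sets (20877 with 1 symbol, 175 with several, 845 with none) and checked by gene ID against RefSeq (GRCm38.p6, 0 symbols changed, 36 IDs not matched). The brightest probe set stood for each of 19421 genes. The genotypes were compared in R 4.3.3 by limma 3.58.1 (lmFit, eBayes, two-sided, Benjamini-Hochberg over all genes, called at an adjusted p under 0.05), with no filter on low signal. The intervals are not adjusted. Pools hold different animals and, per Xist, the 2 pools of a genotype differ in sex. The p-values therefore measure a spread in which pool and sex cannot be told apart. With eBayes the spread of each gene is also drawn toward that of all genes. Alternatives were a replicate block, quantile normalization, a signal filter, a variance trend, the mean of probe sets and leaving out each array.

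The genes and all lists were chosen with earlier results of these data known. The naming rule took the 7 genes, their measured relatives, the 2 genes of smallest p on each pathway list, called and first-listed markers, Nrl and the 5 genes most like Fabp7. For markers it was not followed in full. Clu, other Müller glia markers, the opsin genes, the astrocyte markers beside Gfap, and Tmem119, Trem2 and Itgam were added. The called Rom1 (−1.24) and some first-listed markers, such as Arr3 (0.26), Aif1 (0.96) and Adipoq (−0.18), were left out above. Xist and the pseudogenes were named for context. Of 213 genes on the lists, 199 were measured and 14 were not analysed here.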

Additional observations from a re-analysis of the deposited data

How the results depend on the processing

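Against 39 genes called, the count was 8 with the replicate block, 46 after quantile normalization, 36 with the mean of all probe sets, 89 when the dimmer genes, below the 50th percentile of mean signal, were dropped and 128 when a variance trend was fitted. Leaving out a single array leaves 1 genotype with 1 array, which is then assumed to vary like the pair of the other genotype, so these fits are weak. They gave between 0 and 11 calls, with 0 without either control array by limma (1355 and 1328 genes at an unadjusted p under 0.05). Among the 7 genes 0 were called under 8 of 9 alternatives. With the variance trend 1 was called, Fabp7 at 1.27 (adjusted p = 0.0364). The Fabp7 fold change ran from 0.94 to 1.60 when an array was left out, with adjusted p-values from 0.0364 to 0.705 over the alternatives. The excess of the Fabp7 fold change over the median of the other 6, a form chosen after seeing the data, ran from 0.97 to 1.63, around 1.33. The form planned first subtracted levels of different probe sets, which are not comparable, and is not used. When an array was left out, Fabp5 ran from −0.03 to 0.19 and Crabp1 from −0.45 to 0.02. Both changed sign without control replicate 2, at −0.034 for Fabp5 and 0.019 for Crabp1. The other fold changes of the 7 genes kept their direction under all 9 alternatives. The pathway lists had 0 calls under all 9, but their medians moved. When an array was left out, the other retinoid carriers ran from −0.11 to −0.0063, the retinoic acid and retinoid X receptors from −0.0055 to 0.064, PPARs and their targets from −0.14 to 0.021 and β-oxidation from −0.077 to 0.0091. With the dimmer genes dropped, 1 receptor gene (−0.20) and 4 PPAR and target genes (median −0.21) were left. Same-numbered pools share a number and, per Xist, their sex, and whether they share more is not known here. Their deviations from the group means correlated at 0.24 across genes, and with the replicate block the Fabp7 adjusted p was 0.350, on fewer degrees of freedom.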
